A study of Homo sapiens with 18 samples.

Results

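The genes considered here encode the proteins that surround the spliceosomal small nuclear RNAs: SNRPB, SNRPN, SNRPD1, SNRPD2, SNRPE, SNRPF and SNRPG of the Sm ring, SNRNP70 and SNRPC of the U1 particle, and SNRPA1 of the U2 particle. Their splicing was measured by RNA-seq in SHEP.tet21n cells, a neuroblastoma line with a MYCN transgene that doxycycline (Dox) switches off. Members were the introns with at least 1 splice site on an exon boundary of these 10 genes in GENCODE 44 (hg38). This gave 61 introns in 14 clusters, out of 233650 introns in 51819 clusters, and they belonged to 9 of the 10 genes. SNRPF had 0 introns in the table, SNRPN had 19, SNRNP70 had 9, and each of the others had between 3 and 7. Both splice sites lay on member exon boundaries in 55 of the 61 introns, and all 61 had GT-AG ends.

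Cells kept in 2 µg/mL Dox (MYCN-) or in DMSO (MYCN+) were transfected with a control siRNA (SNRPD3+) or with 1 of 2 siRNAs against SNRPD3 (SNRPD3- #1 and SNRPD3- #2), the gene of the Sm ring protein SmD3. The 6 groups were MYCN-/SNRPD3+, MYCN-/SNRPD3- #1, MYCN-/SNRPD3- #2, MYCN+/SNRPD3+, MYCN+/SNRPD3- #1 and MYCN+/SNRPD3- #2, with 3 libraries each. All MYCN- groups and no MYCN+ group received Dox, so an action of Dox itself and the loss of MYCN cannot be told apart. The study describes its replicates as independent biological ones, while the labels do not say how the 3 libraries of a group were grown. P-values measure the spread between these libraries.

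Sm proteins form a ring of different subunits around a uridine-rich site of each of the U1, U2, U4 and U5 RNAs, and proteins particular to each particle are added to it. U1 recognises the 5′ splice site at the start of an intron, and U2 pairs with the branch site near its end. Several splicing factor genes carry an exon with an in-frame stop codon, and a transcript that includes it can be destroyed by nonsense-mediated decay (NMD). SmB is a known case: the exon in SNRPB is used less when Sm proteins are scarce, and more productive mRNA is made.

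Each value was a PSI, the share of an intron among the spliced reads of its cluster of overlapping introns. The share of reads that included an exon, its inclusion, was the mean PSI of the introns on both sides divided by that mean plus the PSI of the intron that skips it. Of 22 member exons with such a triple, 8 belonged to the canonical transcript and 14 did not. Reads per intron were not in the tables used here, so the depth is unknown and no counting interval was computed. Overlap of groups is described for members only, and the share of all features whose groups overlap or separate was not counted. Expression of the genes could not be read from PSI, and introns of SNRPD3 and MYCN were not analysed here, so neither the knockdown nor the MYCN state was checked. Of the neuroblastoma marker genes examined, 6 of 7 mesenchymal and 3 of 7 adrenergic ones had introns in the table, which is a listing and no level. MYCN-/SNRPD3- #1 replicate 3 lay farther from its group in the member introns than any other library, at a mean distance of 2.27 percentage points, against 0.401 to 1.35 for the other 17. Over all introns with a mean PSI from 1 to 99%, its distance was 4.25 points and those of the others 3.65 to 4.19.

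Exons with a stop codon were listed in SNRNP70 and SNRPB, and each is shown because it would cut the protein short. The sequences are 20 intronic bases ending in the acceptor AG, then the exon up to its first in-frame stop codon, with the AG and the stop in capitals. The SNRNP70 exon is 60 nt long (chr19:49102114-49102173, plus strand, between canonical exons 7 and 8), and the SNRPB exon is 124 nt long (chr20:2467192-2467315, minus strand, between canonical exons 2 and 3). In GENCODE the SNRNP70 exon occurs only in NMD transcripts, with a reading frame of 166 residues in place of 437. Its acceptor is also used by a transcript annotated as protein coding. The SNRPB exon occurs in an NMD transcript of 70 residues in place of 231, and in a transcript annotated as a retained intron. Decay of these transcripts was not measured, so PSI does not show the use of either exon apart from decay.
SNRNP70: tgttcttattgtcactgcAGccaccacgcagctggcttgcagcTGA
SNRPB: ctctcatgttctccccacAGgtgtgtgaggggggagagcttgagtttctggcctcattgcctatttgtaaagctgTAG

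**Figure D1:**
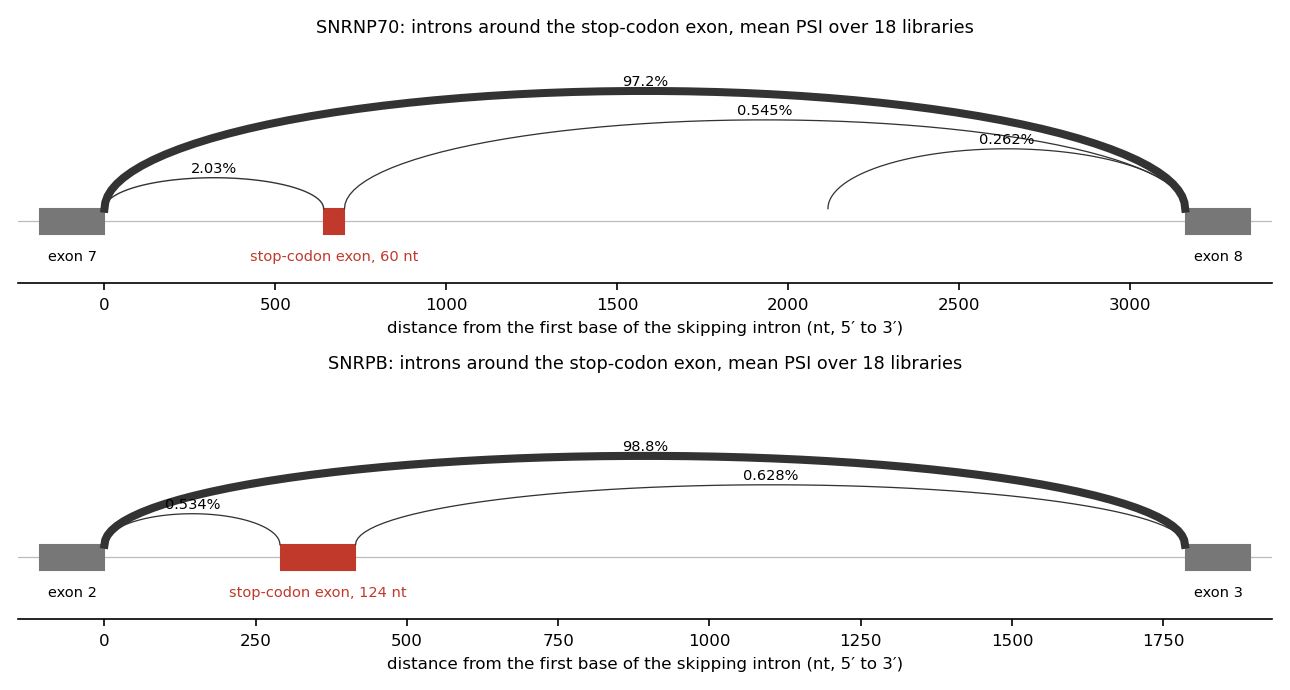
Regions around the stop-codon exons of SNRNP70 and SNRPB, drawn to scale along the horizontal axis (distance in nt, 5′ to 3′; flanking exons not to scale). Arcs are introns with their mean PSI over 18 libraries: skipping introns reached 97.2% and 98.8%, and introns into or out of the stop-codon exons 0.534 to 2.03%.

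SNRNP70, which encodes the U1-70K protein that binds the U1 RNA stem, gave the single member intron that changed in any comparison. The intron from exon 7 to the acceptor of the stop-codon exon had a lower PSI when MYCN was expressed. In MYCN-/SNRPD3+ its PSI was 3.22, 4.10 and 3.15%, and in MYCN+/SNRPD3+ it was 1.17, 2.21 and 2.04%. All 3 control libraries with MYCN expressed were thus below all 3 with MYCN repressed. With SNRPD3 siRNA #1 the values were 2.41, 3.94 and 1.11% in MYCN- cells and 1.03, 0.706 and 0.610% in MYCN+ cells. With siRNA #2 they were 2.19, 3.21 and 1.73% in MYCN- cells and 1.41, 1.21 and 1.08% in MYCN+ cells. The groups did not overlap within either siRNA, whereas the 9 MYCN- libraries as a whole (1.11 to 4.10%) overlapped the 9 MYCN+ libraries (0.610 to 2.21%). Averaged over the siRNAs, PSI was 2.78% ± 1.0 (SD, n = 9) with MYCN repressed and 1.27% ± 0.54 (SD, n = 9) with MYCN expressed. The difference was -0.74 on the log2 odds scale (95% interval -1.09 to -0.39, limma, adjusted p = 0.0430). An exact permutation of the same values within siRNA gave p = 0.00025, unadjusted, the smallest it can give. Introns of SNRPN and SNRPD1 that were not called reached the same permutation p.

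This was 1 of 35 member introns tested for MYCN, while 1.23% of all 152722 introns tested were called, and a single call is no excess over that background. An unadjusted p under 0.05 in limma was found for 7 of the 35, some of them in the same cluster, and for 11.7% of all introns. The call was close to its threshold. Leaving out single libraries kept the direction in all 18 cases and the call in 2, those without MYCN-/SNRPD3- #1 replicate 3 (adjusted p = 0.00916, limma) and without MYCN-/SNRPD3- #2 replicate 3 (adjusted p = 0.0478, limma). In the other 16 cases the adjusted p from limma was above the threshold, up to 0.0892.

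The other introns of this SNRNP70 cluster did not pass or were too rare to test. The intron that skips the stop-codon exon had a mean PSI of 96.2% ± 1.5 (SD, n = 9) with MYCN repressed and 98.2% ± 0.79 (SD, n = 9) with MYCN expressed, and the difference of 0.77 log2 odds missed the threshold (adjusted p = 0.0806, limma), but passed it without MYCN-/SNRPD3- #1 replicate 3 (0.91 log2 odds, adjusted p = 0.0158, limma). The intron out of the exon had a mean PSI of 0.686% with MYCN repressed and 0.404% with MYCN expressed, below the 1% needed for the test across introns. A later donor, which lengthens the stop-codon exon, had 0.365 and 0.159%. Inclusion of the stop-codon exon was 1.78% ± 0.65 (SD, n = 9) in MYCN- and 0.849% ± 0.36 (SD, n = 9) in MYCN+ libraries, a difference of -0.59 log2 odds (95% interval -0.94 to -0.23, adjusted p = 0.0945, limma). Over all 18 libraries the intron into the exon had a mean PSI of 2.03% and the intron out of it 0.545%. Use of the acceptor, and the inclusion that averages both introns, are therefore not the level of the 60-nt exon alone.

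Knockdown of SNRPD3 went the same way in SNRNP70 without passing the test. Inclusion of the stop-codon exon was 2.18, 2.61 and 1.97% in MYCN-/SNRPD3+ libraries, 1.54, 2.49 and 0.700% with siRNA #1, and 1.34, 2.06 and 1.10% with siRNA #2. In MYCN+ cells it was 0.796, 1.54 and 1.26% in controls, 0.705, 0.497 and 0.371% with siRNA #1 and 0.927, 0.880 and 0.668% with siRNA #2. Control and knockdown libraries overlapped in both MYCN states. The knockdown difference was -0.40 log2 odds (95% interval -0.78 to -0.02, adjusted p = 0.401, limma), with an exact permutation p of 0.0135 within MYCN state, unadjusted. The lowest values of all stood in MYCN+/SNRPD3- #1, and the intron into the exon differed by -1.37 log2 odds between that group and MYCN-/SNRPD3+ (adjusted p = 0.0656, limma). This passed without MYCN-/SNRPD3- #1 replicate 2 or 3, which share only the estimate of spread with that comparison (adjusted p down to 0.0292, limma). The same difference was -1.04 with siRNA #2 (adjusted p = 0.195, limma). Those comparisons share their control libraries with the MYCN comparison.

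**Figure D2:**
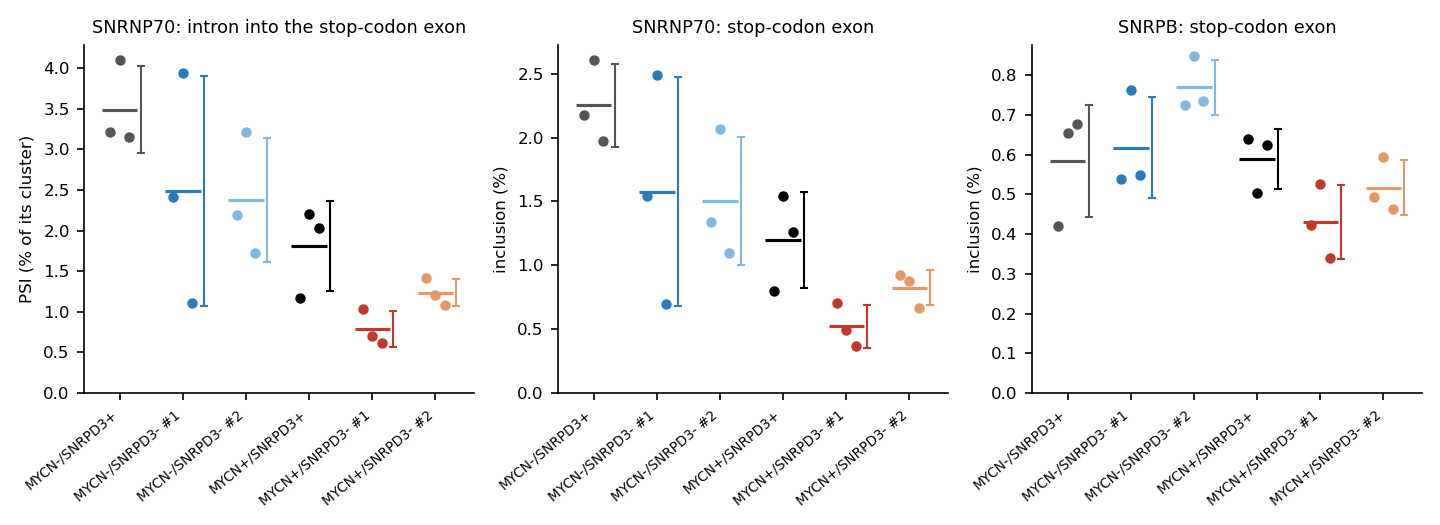
PSI of the SNRNP70 intron into its stop-codon exon, and inclusion of the stop-codon exons of SNRNP70 and SNRPB, in % for each library (points) by group, with the group mean (line) and SD (bar, n = 3). SNRNP70 inclusion ran from 2.61% in a MYCN-/SNRPD3+ library to 0.371% in a MYCN+/SNRPD3- #1 library, and SNRPB inclusion stayed below 1% in every library.

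SNRPB encodes SmB and SmB′, which differ at their C-terminal ends. Its stop-codon exon, a known target of control by Sm protein supply, was included in 0.341 to 0.849% of its spliced reads and stayed under the 1% floor for the test. In MYCN- cells the inclusion was 0.421, 0.654 and 0.678% in controls, 0.539, 0.764 and 0.549% with siRNA #1 and 0.725, 0.849 and 0.734% with siRNA #2. In MYCN+ cells it was 0.640, 0.504 and 0.624% in controls, 0.422, 0.527 and 0.341% with siRNA #1 and 0.493, 0.595 and 0.462% with siRNA #2. Knockdown means were therefore above the control mean in MYCN- cells and below it in MYCN+ cells, with overlapping libraries in both. The 12 knockdown libraries averaged 0.583% and the 6 controls 0.587%. Between MYCN states, inclusion was 0.657% ± 0.13 (SD, n = 9) with MYCN repressed and 0.512% ± 0.098 (SD, n = 9) with MYCN expressed (exact permutation p = 0.0173, unadjusted, overlapping groups). This difference stood in the knockdown libraries. Under each SNRPD3 siRNA all MYCN+ libraries were below all MYCN- libraries. Controls overlapped, at 0.421 to 0.678% with MYCN repressed and 0.504 to 0.640% with MYCN expressed. The intron that skips the exon, the 1 of the cluster that could be tested, differed by 0.19 log2 odds between MYCN states (adjusted p = 0.356, limma).

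The choice between SmB and SmB′ is made at 2 acceptors of the last SNRPB exon, 146 nt apart. The acceptor of SmB, a protein of 231 residues, took 76.5% ± 3.8, 79.3% ± 6.5 and 75.7% ± 4.2 (SD, n = 3) in MYCN- cells with control siRNA, siRNA #1 and siRNA #2. In MYCN+ cells it took 78.3% ± 3.7, 80.3% ± 3.0 and 79.9% ± 2.1 (SD, n = 3). SmB′, of 240 residues, took the rest of the cluster. The knockdown difference for the SmB acceptor was 0.13 log2 odds with a 95% interval from -0.25 to 0.50 (adjusted p = 0.959, limma). The lowest SmB′ share of all libraries, 13.3%, stood in MYCN-/SNRPD3- #1 replicate 3.

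SNRNP70 showed the same kind of choice in its last exon, where 2 acceptors lie 27 nt apart (chr19:49107795-49107821). Use of the first gives the protein of 437 residues, and use of the second leaves out the stretch below and gives 428 residues. It is shown because both forms were common.
SNRNP70 stretch between the acceptors: gcccggcccctccccgcttccgcacag
The first acceptor took 61.8% ± 0.91 (SD, n = 3) in MYCN-/SNRPD3+, where the libraries were within 60.9 to 62.7%. It took 59.7, 59.1 and 37.3% with siRNA #1 and 53.7, 62.0 and 48.9% with siRNA #2 in MYCN- cells. In MYCN+ cells the libraries lay between 53.8 and 59.8% in controls, between 48.9 and 66.5% with siRNA #1 and between 55.6 and 64.5% with siRNA #2. Neither comparison gave an unadjusted p under 0.05 for this choice, and the single value of 37.3% came from MYCN-/SNRPD3- #1 replicate 3.

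**Figure D3:**
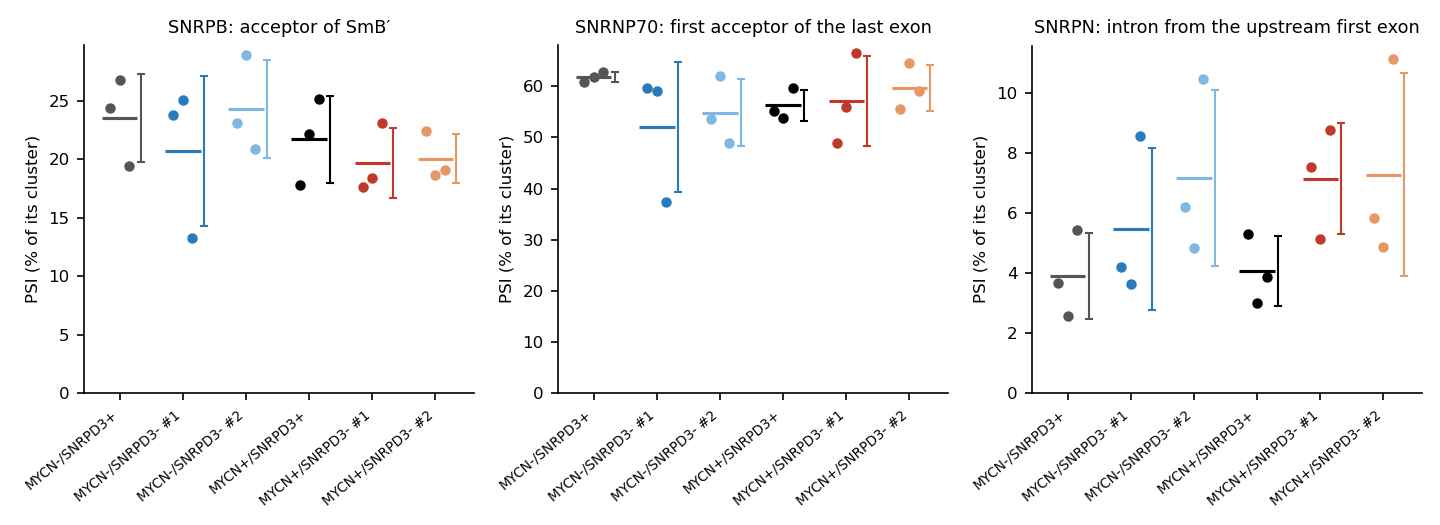
PSI in % of the SmB′ acceptor of SNRPB, of the first acceptor of the last SNRNP70 exon and of the SNRPN intron from its upstream first exon, for each library (points) by group with mean (line) and SD (bar, n = 3). The groups overlapped in the first 2 choices, and 1 knockdown library with MYCN repressed stood low in both, at 13.3% and 37.3%. The SNRPN intron averaged 3.98% in 6 control and 6.77% in 12 knockdown libraries.

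Across all members, knockdown of SNRPD3 produced no call. None of 35 member introns passed in the comparison of 12 knockdown with 6 control libraries, in which 0.0242% of all introns were called, and 5 of the 35 had an unadjusted p under 0.05 in limma, as did 7.8% of all introns. None of 17 member exons tested passed, and none of the 54631 exons tested in all (0.0%), of which 6421 (11.8%) had an unadjusted p under 0.05. Of the members, 2 exons had such a p, those in SNRPA1 and SNRNP70. For MYCN, 0 of 17 member exons passed in limma against 1.51% of all exons, and 5 of the 17 had an unadjusted p under 0.05, as did 16.7% of all exons. The interaction, which asks whether the knockdown effect differs between MYCN states, gave no member an adjusted p under 0.999 in limma, with an unadjusted p under 0.05 for 0 of 35 introns and 0 of 17 exons. The background there was 0.0177% of introns and 0.0% of exons. In MYCN+ cells 0 members passed in limma for either siRNA against its controls, and 0.0144 and 0.0164% of all introns and 0.00366 and 0.00732% of all exons did for siRNA #1 and #2. In MYCN- cells 0 members passed either, against 0.0105 and 0.0151% of introns and 0.00549% of exons for each siRNA. The siRNAs compared with each other gave 0 members, against 0.0183% of introns and 0.0165% of exons, and MYCN+ against MYCN- controls gave 0, against 0.0543 and 0.00366%. In these 6 comparisons between 0 and 5 member introns and between 0 and 2 member exons had an unadjusted p under 0.05, as did between 4.54 and 7.25% of all introns and between 5.21 and 10.5% of all exons. Comparing MYCN+ knockdown with MYCN-/SNRPD3+ libraries, again 0 members passed in limma, against 0.278% of introns and 0.39% of exons for siRNA #1 and 0.11% and 0.0988% for siRNA #2. In these, 4 introns each and 2 and 3 exons had an unadjusted p under 0.05, as did 10.4 and 9.19% of all introns and 16 and 13.6% of all exons. In data simulated for the knockdown comparison, a shift of 1 log2 odds was recovered in 34.0% of introns and 13.5% of exons. The shifted features were drawn from all introns or all exons tested. The simulated spread came from deviations from group means of 3 libraries, not rescaled. That understates the spread between libraries, so the recovered shares may be too high. Member introns lay closer to their group means, in points, than all introns did, so these shares need not hold for the members. Shifts under 1 log2 odds were not simulated, so how often smaller differences would be missed is unknown.

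SNRPA1 encodes the A′ protein of the U2 particle. Its exon 6 is 80 nt long, so skipping it shifts the reading frame (chr15:101286214-101286293, minus strand), and GENCODE annotates the skipped form as an NMD transcript of 154 residues in place of 255. It is shown because its skipping intron had the smallest adjusted p of the member introns under knockdown.
SNRPA1 exon 6: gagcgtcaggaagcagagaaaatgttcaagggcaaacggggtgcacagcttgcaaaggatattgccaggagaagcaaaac
The skipping intron took 1.55, 2.40 and 2.22% in MYCN-/SNRPD3+ and 1.90, 2.08 and 2.71% in MYCN+/SNRPD3+. With siRNA #1 it took 0.809, 1.74 and 1.43% in MYCN- and 1.49, 1.60 and 1.45% in MYCN+ cells. With siRNA #2 it took 1.49, 1.14 and 1.10% in MYCN- and 1.72, 1.24 and 1.65% in MYCN+ cells. In MYCN+ cells all 6 knockdown libraries lay below all 3 controls, and in MYCN- cells 1 knockdown library overlapped them. The share of all introns that separate in this way was not counted. Inclusion of exon 6 averaged 95.8% in 6 control and 97.2% in 12 knockdown libraries, higher by 0.49 log2 odds (95% interval 0.14 to 0.83), which did not pass across all exons (adjusted p = 0.276, limma). An exact permutation within MYCN state gave p = 0.000425, unadjusted. For the skipping intron the difference was -0.40 log2 odds (adjusted p = 0.318, limma).

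SNRPG encodes SmG of the ring. Its exon 2 has 23 nt (chr2:70289350-70289372, minus strand), the shortest of the canonical member exons with a skipping intron, and its skipping was the most frequent among them.
SNRPG exon 2: atttatggacaagaagttatcat
The skipping intron took 4.53, 5.09 and 5.39% in MYCN-/SNRPD3+ and 4.56, 5.15 and 5.38% in MYCN+/SNRPD3+. With siRNA #1 it took 5.56, 5.90 and 5.99% in MYCN- and 5.81, 5.74 and 8.19% in MYCN+ cells. With siRNA #2 it took 5.48, 5.41 and 5.78% in MYCN- and 5.35, 5.74 and 6.42% in MYCN+ cells. Every knockdown library with MYCN repressed was above its controls, whereas with MYCN expressed 1 knockdown library fell within their range. Inclusion of exon 2 averaged 90.4% in controls and 88.8% after knockdown, a difference of -0.23 log2 odds (95% interval -0.52 to 0.05, adjusted p = 0.521, limma). The skipping intron differed by 0.22 log2 odds (adjusted p = 0.548, limma, exact permutation p = 0.00454, unadjusted). Exon 2 inclusion differed by -0.08 log2 odds between MYCN states (adjusted p = 0.824, limma). The SNRPG and SNRPA1 exons thus differed in opposite directions after knockdown, without a call for either.

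SNRPC, the gene of the U1-C protein that steadies U1 at the 5′ splice site, had a 43-nt exon 2 (chr6:34757912-34757954, plus strand) that was almost always included. Its skipping intron averaged 0.173% ± 0.084 (SD, n = 9) with MYCN repressed and 0.406% ± 0.21 (SD, n = 9) with MYCN expressed (exact permutation p = 0.00075, unadjusted). The values ran from 0.0531 to 0.323% and from 0.201 to 0.832%, so the groups overlapped, and the exon was above the 99% limit of the test across exons. The SNRPC intron after exon 2, the one with the largest knockdown difference among its tested introns, averaged 63.9% in control and 63.8% in knockdown libraries, a difference of -0.01 log2 odds (95% interval -0.13 to 0.11, adjusted p = 0.998, limma).

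SNRPD1 and SNRPD2 encode SmD1 and SmD2, which sit beside each other in the ring. SNRPD1 exon 2 (77 nt) was skipped in 0.194% of cluster reads in controls and 0.265% after knockdown, on average (exact permutation p = 0.0140, unadjusted). An acceptor inside SNRPD1 exon 3 that GENCODE does not list had a PSI of 0.601% ± 0.13 (SD, n = 9) with MYCN repressed and 0.836% ± 0.14 (SD, n = 9) with MYCN expressed (exact permutation p = 0.00025, unadjusted, overlapping groups). The intron from SNRPD1 exon 2 to exon 3 had the largest knockdown difference among the tested ones, 51.7 against 52.2% (0.03 log2 odds, adjusted p = 0.985, limma). In SNRPD2 the direct intron from exon 1 to exon 2 took 96.4% in controls and 96.8% after knockdown (0.13 log2 odds, 95% interval -0.02 to 0.28, adjusted p = 0.698, limma). Of its 2 optional exons, of 115 and 96 nt, inclusion averaged 1.51 and 0.338% in controls and 1.38 and 0.252% after knockdown.

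SNRPE encodes SmE. Its cluster held an optional acceptor just before that of canonical exon 2, reached from a donor just beyond the end of canonical exon 1. The intron between them took 1.93, 1.67 and 1.57% in MYCN-/SNRPD3+ and 2.38, 2.33 and 2.65% in MYCN+/SNRPD3+. Over the siRNAs it averaged 1.65% ± 0.17 (SD, n = 9) with MYCN repressed and 2.16% ± 0.27 (SD, n = 9) with MYCN expressed, 0.26 log2 odds higher (95% interval 0.11 to 0.40, adjusted p = 0.0919, limma). MYCN+ libraries lay at 1.80 to 2.65% and MYCN- libraries at 1.45 to 1.93%, so they overlapped narrowly. The intron from a later donor straight to exon 3 had the opposite order, 3.15% with MYCN repressed and 2.58% with MYCN expressed (adjusted p = 0.355, limma). Stretches of 41 and 45 nt from that acceptor counted as exons, with group means of inclusion from 88.0 to 91.3% and from 10.1 to 13.5%. For the 41-nt stretch the flanking introns had mean PSI values of 0.438 and 47.0%, since the second also follows canonical exon 2, so its inclusion is not the level of a separate exon. The knockdown differences were 0.13 and 0.02 log2 odds and the MYCN differences 0.29 and 0.16 (adjusted p from 0.323 to 0.964, limma). The 63-nt canonical exon 3 was included in 98.9% in control and 98.7% in knockdown libraries, with a knockdown difference of -0.14 log2 odds (adjusted p = 0.689, limma).

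**Figure D4:**
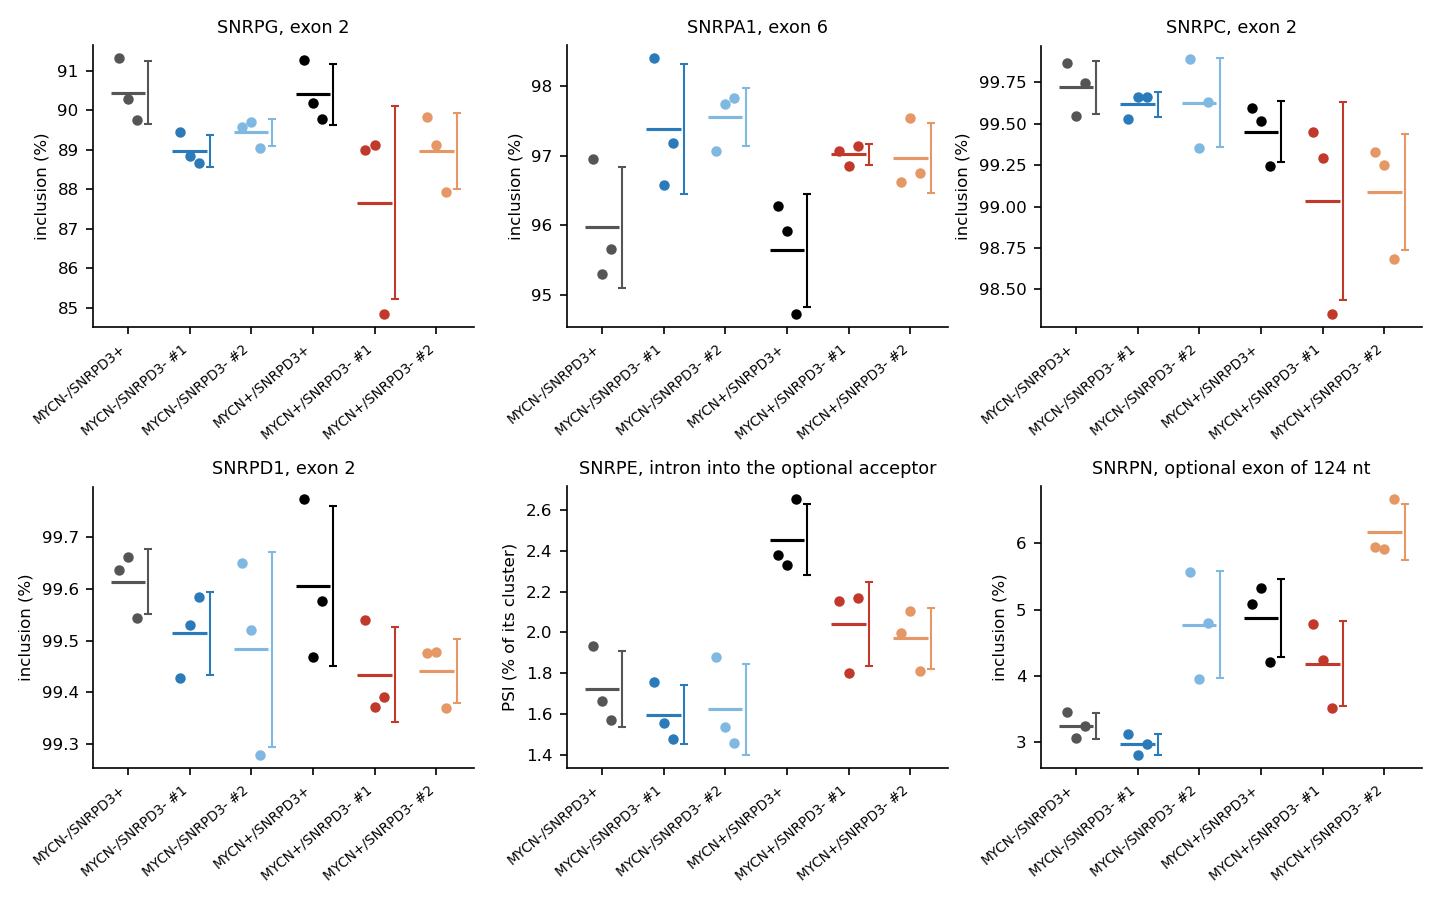
Inclusion in % of SNRPG exon 2, SNRPA1 exon 6, SNRPC exon 2, SNRPD1 exon 2 and the 124-nt SNRPN exon, and PSI in % of the SNRPE intron into its optional acceptor, for each library (points) by group with mean (line) and SD (bar, n = 3). The vertical axes do not start at 0 and differ between panels. SNRPA1 exon 6 averaged 95.8% in control and 97.2% in knockdown libraries, and SNRPG exon 2 90.4 and 88.8%.

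SNRPN encodes SmN, a close relative of SmB that is expressed from the paternal copy and best known from neurons. Of all member introns, 20 also matched another gene, such as SNURF, which shares transcripts with SNRPN. Most of the first cluster, 84.8% in controls and 81.7% after knockdown, came from the canonical first exon. An upstream first exon, joined to exon 2 over 41989 nt, took 3.67, 2.58 and 5.43% in MYCN-/SNRPD3+ and 5.30, 3.01 and 3.88% in MYCN+/SNRPD3+. It took 3.63 to 8.77% with siRNA #1 and 4.85 to 11.2% with siRNA #2 over both MYCN states, which overlapped the controls. The knockdown difference was 0.65 log2 odds (95% interval 0.13 to 1.18, adjusted p = 0.503, limma).

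An optional SNRPN exon of 124 nt (chr15:24967029-24967152, plus strand) between canonical exons 2 and 3 had higher group means with MYCN expressed for each siRNA, without a call. Its inclusion was 3.45, 3.06 and 3.25% in MYCN-/SNRPD3+ and 5.08, 5.32 and 4.21% in MYCN+/SNRPD3+, so the control groups did not overlap. The MYCN- and MYCN+ groups averaged 2.97% ± 0.16 and 4.18% ± 0.64 under siRNA #1 (SD, n = 3), against 4.77% ± 0.80 and 6.17% ± 0.42 under siRNA #2. The MYCN difference of 0.41 log2 odds (95% interval 0.14 to 0.67) did not pass across all exons (adjusted p = 0.118, limma), nor did that of the intron into the exon, 0.32 log2 odds (adjusted p = 0.0673, limma). The latter passed without MYCN-/SNRPD3- #1 replicate 1, at 0.35 log2 odds (adjusted p = 0.0421, limma), and under 2 of the processing alternatives (adjusted p down to 0.0443, limma). The intron out of the exon, 0.29 log2 odds (adjusted p = 0.129, limma), passed without MYCN-/SNRPD3- #2 replicate 1, at 0.34 (adjusted p = 0.0423, limma). The exact permutation p for inclusion was 0.00025, unadjusted. A 212-nt form with a later donor shares the same upstream intron and had a difference of 0.40 (adjusted p = 0.124, limma). Stretches of 571 and 560 nt farther downstream, which GENCODE does not list as exons, rested on introns with mean PSI values from 0.201 to 0.616%, and their MYCN differences were 0.54 and 0.52 (adjusted p = 0.281 and 0.228, limma). Their knockdown differences were -0.29 and -0.05 (adjusted p = 0.698 and 0.948, limma). SNRPB and SNRPN are paralogues with closely similar coding sequences, and how reads that fit both were treated is not given in the sources used here.

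**Figure D5:**
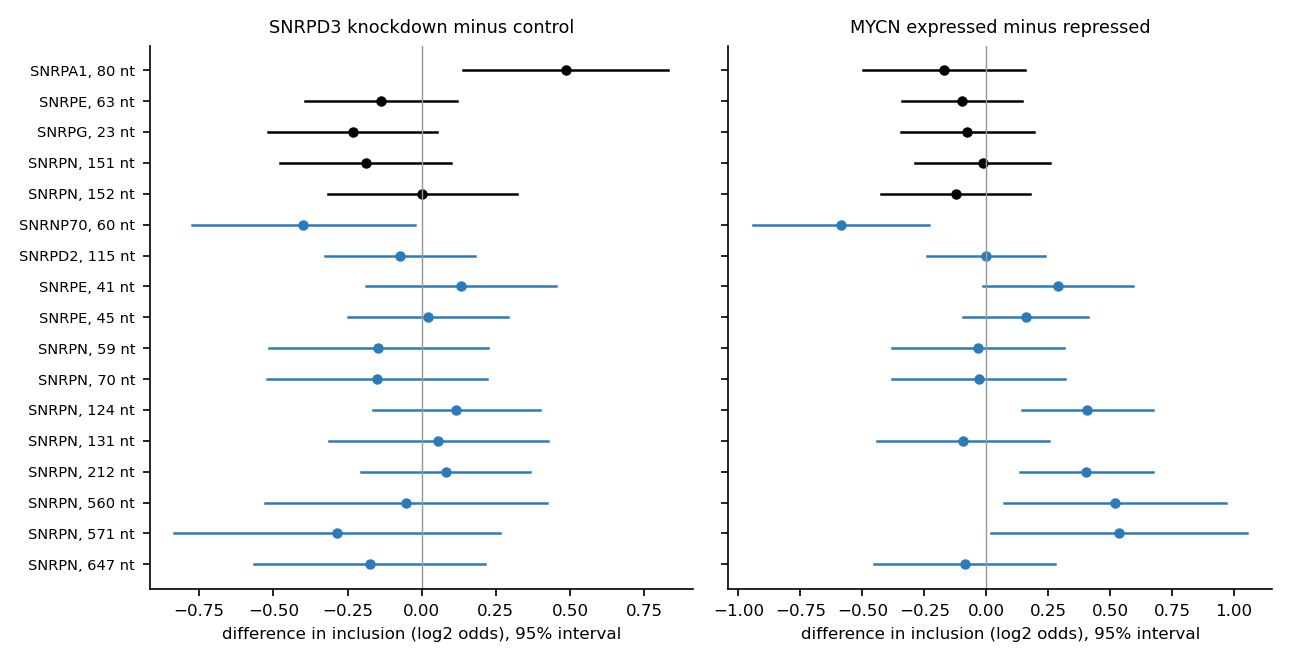
Difference in inclusion (log2 odds, points, with 95% intervals from limma) of the 17 member exons tested, after SNRPD3 knockdown (left) and with MYCN expressed (right), labelled by gene and length, black for exons of the canonical transcript and blue for others. SNRPA1 exon 6 stood highest under knockdown at 0.49 and the 60-nt SNRNP70 exon lowest in both panels, at -0.40 and -0.59.

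Among the 8 canonical member exons, inclusion was lower than in the matching controls in 7 with siRNA #1 and 6 with siRNA #2 in MYCN+ cells, and in 5 with either siRNA in MYCN- cells. Over all 65690 exons the shares lower were 66.6, 63.3, 60.7 and 58.2%. Over exons with a mean inclusion of at least 90% they were 70.3, 67.9, 61.1 and 58.7%. The members' shares, 87.5, 75.0, 62.5 and 62.5%, were higher than both, but they rest on 8 exons and the difference was not tested.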

How the data were processed

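RNA of SHEP.tet21n cells was sequenced as stranded, paired-end mRNA libraries, 18 in 6 groups of 3. Per the submitters' processing notes and the study's methods, the authors aligned reads with STAR 2.5.0a to hg38, used SAMtools 1.3.1, and built clusters of overlapping introns in leafcutter. The deposited values are PSI as a fraction from 0 to 1, without reads per intron, and were used as percent. A second deposited table holds the authors' own comparisons and was not used.

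Intron ends matched exon boundaries of GENCODE 44 at an offset of 0 bases (79.0% of starts and 78.8% of ends, at most 0.413% at other offsets). Member introns were those with a splice site on a member boundary. Cassette exons were at most 1000 nt long. PSI and inclusion were transformed as log2((x + 0.01)/(1 - x + 0.01)), kept where the mean lay between 0.01 and 0.99 (152722 introns, 54631 of 65690 exons), and fitted with limma 3.58.1 in R 4.3.3 on 6 group means over all 18 libraries. P-values were adjusted by Benjamini-Hochberg over all introns or all exons, with a threshold of 0.05. The knockdown comparison averaged both siRNAs and both MYCN states, and the MYCN comparison averaged the 3 siRNAs. Other comparisons took single groups, the interaction and the siRNAs against each other. Single values were compared by exact permutation of libraries, two-sided, within MYCN state (7056 arrangements) or within siRNA (8000). These p-values were not adjusted and were computed for members only, so no share over all features stands beside them. Python 3.11.15 with numpy 2.4.6, pandas 2.3.3, scipy 1.17.1 and matplotlib 3.10.9 did the rest. The fit was tested on simulated data.

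The members and gene lists were chosen with earlier results of these data known. By rule, the text names in each gene the exons with a mean inclusion from 5 to 95%, any member called in a comparison and, for a gene with neither, its tested intron with the largest knockdown difference. Introns and exons with an unadjusted p under 0.05, untested exons and alternative acceptors were added after their values were seen. Alternatives covered the offset, the transform, filters, thresholds, a trended and robust fit, flanking introns taken singly, the replicate block and leaving out each library.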

Additional observations from a re-analysis of the deposited data

How the results depend on the processing

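The number of member introns called for MYCN, 1 in the report, was 0 with an adjusted p under 0.01, the trended and robust fit, no filter, an offset of 0.05 or untransformed values. It was also 0 with a difference of at least 5 points and with means from 0.05 to 0.95. Those 2 settings could not keep the called SNRNP70 intron, whose mean PSI was 2.03% and whose difference was -1.51 points. The number was 2 with an offset of 0.001, only introns with 18 different values or the replicate block. The second was the intron into the 124-nt SNRPN exon with the offset of 0.001 and with 18 different values, and the SNRNP70 skipping intron with the block. The number ranged from 0 to 2 over the leave-one-out fits. For MYCN+/SNRPD3- #1 against MYCN-/SNRPD3+ it was 1 with only 18 different values or the replicate block, and 0 to 2 over the leave-one-out fits. In all other comparisons, and for exons in all 11, the member count was 0 under every alternative run. The SNRPE stretches of 41 and 45 nt reversed with the upstream flanking intron only (-0.063 for knockdown and -0.022 for MYCN in both), and the SNRPN stretches of 571 and 560 nt with the downstream one only (0.23 for knockdown). Leaving out 1 library moved the knockdown difference of the SNRPC intron between -0.012 and 0.0025, of the 45-nt SNRPE stretch between -0.0035 and 0.044, and of the 560-nt SNRPN stretch between -0.12 and 0.065 log2 odds. The causes were not tested.

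By the limit of 0.1, replicate numbers were not taken to pair the libraries: of 45 pairs with the same number in different groups, 0 had deviations correlated above 0.1 (mean r 0.00615 over introns, 0.00800 over exons). Within a MYCN state the 18 same-number pairs averaged 0.0253 over introns and 0.0224 over exons, and different-number pairs -0.0126 and -0.0112. With the replicate block, the SNRNP70 intron into the stop-codon exon had an adjusted p of 0.0289 (limma) for MYCN and 0.0397 for MYCN+/SNRPD3- #1 against MYCN-/SNRPD3+, and the skipping intron 0.0427 for MYCN. Over all features, leaving out single libraries gave 28 to 69 introns called for knockdown and the other alternatives 16 to 67 (37 in the report). For exons these were 0 to 32 and 0 to 36 (0). For MYCN the other alternatives ranged between 559 and 2283 introns (1875) and between 90 and 1187 exons (823), and leaving out single libraries gave 1330 to 1738 and 297 to 741. Without read counts, the precision of rare introns is unknown.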

Other observations

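Of 36 genes for other U snRNP proteins, 34 had a listed feature. Under knockdown 0 of their 196 tested introns passed in limma, where 0.0242% of all introns did. An unadjusted p under 0.05 was found for 23 of them, and for 7.8% of all introns. For MYCN 6 passed, 4 higher and 2 lower, where 1.23% of all introns did. Their introns called lay in PPIH, PRPF3, TXNL4A and SNU13. The PRPF3 introns share a cluster, as do the SNU13 introns, so the calls are not separate events. Of the 54 tested exons of these genes, 0 passed in limma for knockdown, with 8 at an unadjusted p under 0.05, as were 11.8% of all exons. For MYCN 3 passed, all lower, where 1.51% of all exons did. Those in TXNL4A overlap each other. Of 14 genes for Sm-like (LSM) proteins, 13 had a feature, and 4 of 82 introns and 0 of 29 exons passed for MYCN in limma, against 1.23 and 1.51% of all. Those introns lay in LSM5 and LSM14A. The LSM5 introns share a cluster, and the LSM14A intron was far lower in MYCN+/SNRPD3- #1 than in the other MYCN+ groups. An unadjusted p under 0.05 was found for 7 of the exons, and for 16.7% of all exons. For knockdown 0 of the 82 and 0 of the 29 passed, with 14 and 7 at such a p, as were 7.8% of all introns and 11.8% of all exons. With siRNA #1 in MYCN+ cells 1 of the 82 introns passed, in LSM14A, lower with knockdown (-3.77 log2 odds, adjusted p = 0.00627, limma), where 0.0144% of all introns did. It also differed between the siRNAs (-2.18, adjusted p = 0.0309, limma), where 0.0183% of all introns did. Its mean PSI was 0.154% in MYCN+/SNRPD3- #1 and 12.1 to 20.2% in the other groups. Comparing MYCN+/SNRPD3- #1 with MYCN-/SNRPD3+, 2 of the 82 introns, in LSM14A and LSM2, and 3 of the 196, in PRPF3 and SNU13, passed, where 0.278% of all introns did. The smallest knockdown p over the exons of these lists belonged to SF3B3, a U2 particle protein (0.86 log2 odds, adjusted p = 0.178, limma), LSM2, of the ring on U6 RNA (-1.48, adjusted p = 0.181, limma), and PRPF3, of the U4/U6 particle (-0.66, adjusted p = 0.199, limma).

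Among 52082 exons with 18 different values, those whose inclusion over the 18 libraries was most like that of the SNRNP70 stop-codon exon, which was taken as a reference after its values were seen, lay in HM13 (Pearson r = 0.95), EIF3K (0.941), SON (0.937), NOP16 (0.936) and UQCRH (0.933). The HM13 exon averaged 92.5% with MYCN repressed and 86.8% with MYCN expressed, and the SON exon 7.15 and 4.23%. Another reference was set by a separate rule, the tested member exon in no coding transcript with the highest mean inclusion. It was a 647-nt SNRPN stretch that shares its upstream intron with canonical exon 4. The exons most like it lay in ATG7 (0.797), PTPN4 (0.776), SLC35B3 (0.776), RYR1 (0.762) and CEP250 (0.760). The points share libraries and group differences, and the highest of many correlations is a description.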
